A study of Mus musculus with 55 samples.

Results

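The genes described here are Dcn, which encodes the matrix proteoglycan decorin, and 8 genes that are known markers of the fibroblasts of the brain coverings, namely Lum, Ogn, Fmod, Slc6a13, Aldh1a2, Bgn, Islr and Mgp. They are 9 of the 45318 genes listed in the count tables, and all 9 were among the 18283 genes that passed the low-count filter. Dcn was chosen by its measured difference in read counts between susceptible and resilient mice raised in an enriched environment, and the other genes for being fibroblast genes, so every contrast that holds those mice is given below as a description without a test.

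Fibroblasts of the meninges and of the larger vessels deposit the collagen and proteoglycan matrix that surrounds the brain, and fibroblasts are sparse inside the brain tissue. Decorin, biglycan, fibromodulin, lumican and osteoglycin, the products of Dcn, Bgn, Fmod, Lum and Ogn, are small leucine-rich proteoglycans, secreted proteins that bind collagen fibrils, and decorin also binds growth factors such as TGF-beta. Of the other members, Slc6a13 encodes a transporter for GABA and taurine, Aldh1a2 a retinoic acid-synthesizing enzyme of the meninges, Mgp an inhibitor of tissue calcification, and Islr a surface protein of mesenchymal cells.

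Each library held RNA of 1 adult male C57BL/6J mouse, taken with a tissue puncher from the ventral dentate gyrus, and the mice had lived from weaning in standard housing (SH) or in an enriched environment (EE), a larger cage with tunnels, objects and running wheels. Control mice of both housings were not defeated, whereas the others underwent chronic social defeat stress (CSDS), repeated exposure to an aggressor mouse, and were then classed by social interaction as resilient (RES) or susceptible (SUS). The 54 mice comprised 10 SH control, 7 SH RES, 10 SH SUS, 9 EE control, 9 EE RES and 9 EE SUS mice. RES and SUS describe behavior after the same defeat, and were not assigned.

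The 55 libraries held 32223034 to 49990637 read pairs, and EE control mouse 9 had been sequenced in 2 runs, which were summed. Markers of dentate granule cells were present in every mouse, with a summed level of the 6 listed genes between 439 and 928 CPM, the read count of a gene scaled by the library size. Markers of adjoining tissue also varied, since the summed level of 8 genes of the choroid plexus reached 999 CPM and that of 5 thalamic genes ran from 98.7 to 557 CPM. Of 25 other listed meningeal fibroblast genes, 24 passed the low-count filter, and Slc47a1, which was at 0 in 13 mice, did not. In bulk samples such as these, fewer cells of a type and less RNA per cell cannot be told apart.

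Per kilobase of exon, the member with the highest mean level over the 54 mice was Ogn at 9.04 CPM per kb, followed by Mgp at 7.80 and Dcn at 4.46 CPM per kb. Islr at 3.51, Slc6a13 at 3.21, Lum at 2.47 and Aldh1a2 at 2.001 CPM per kb were lower. The lowest were Fmod at 0.824 and Bgn at 0.697 CPM per kb. Every member was detected in every mouse, and the smallest count was 24, for Fmod.

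Dcn was the most variable member. Its level over the 54 mice ran from 8.17 to 65.2 CPM with a median of 20.5 CPM, a 7.99-fold range. Ogn spanned a 5.43-fold range, from 6.64 to 36.1 CPM, and Fmod a 4.66-fold range, from 1.29 to 6.01 CPM, whereas the 6 other members ranged from 2.03-fold for Islr to 3.47-fold for Aldh1a2. The biological coefficient of variation, which is the spread between mice of one group after counting noise has been removed, was 0.491 for Dcn, against a median of 0.0870 over all 18283 genes. Among the 609 genes of a like mean level, whose median was 0.0672, 1 had a larger coefficient than Dcn.

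The other members also exceeded the median of genes of their level, by less than Dcn did. The coefficient was 0.364 for Fmod, 0.257 for Ogn, 0.248 for Aldh1a2, 0.214 for Mgp and 0.179 for Slc6a13. It was 0.152 for Lum and for Bgn and 0.124 for Islr, which were closest to the medians of genes at their level, between 0.0855 and 0.111. The 2 runs of EE control mouse 9 differed far less than mice did, with 25.1 and 26.5 CPM for Dcn and 7.74 and 7.23 CPM for Lum, each over all counts of the run.

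**Figure D1:**
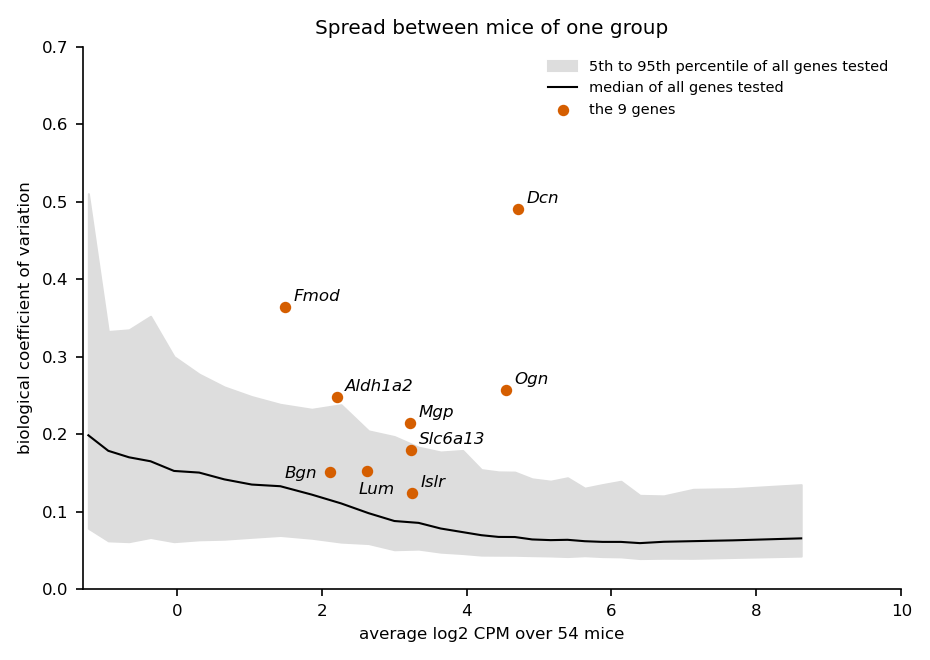
The plot of spread against level shows the biological coefficient of variation (vertical axis, no unit) of each of the 9 genes (orange points) against its average log2 CPM over 54 mice (horizontal axis), with the median (line) and the 5th to 95th percentile (grey band) of all 18283 genes, in 30 bins of equal size. Dcn, at 0.491, lies far above the band, Fmod, Ogn, Aldh1a2 and Mgp lie above it too, and Slc6a13, Lum, Bgn and Islr lie inside it.

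The question the study's design asks of these genes is whether housing, defeat and susceptibility went with their level. In EE, the contrast that chose Dcn, its level was 17.8, 42.3 and 63.3 CPM (lowest, median and highest) in the 9 RES mice and 11.4, 15.1 and 28.2 CPM in the 9 SUS mice. Of the RES mice, 5 lay above every SUS mouse, and 6 of the SUS mice lay below every RES mouse. The fitted log2 difference of SUS against RES mice was -1.08 (standard error 0.34), or 0.472-fold. Over all genes 0% passed an adjusted p of 0.05 in this contrast with edgeR, DESeq2 or limma, and 643 (3.52%), 595 and 602 genes passed an unadjusted p of 0.05.

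The 8 other members, called fibroblast genes here from prior knowledge and not from these data, did not share that difference. Their log2 differences between EE SUS and EE RES mice lay between -0.03 for Mgp and 0.18 for Ogn, with a median of 0.06 and with 7 of the 8 higher in SUS mice. Lum, the neighbor of Dcn on chromosome 10 and like it a proteoglycan, was at 4.08, 5.84 and 6.04 CPM in EE RES and 4.12, 5.93 and 8.83 CPM in EE SUS mice. For Lum, 3 SUS mice lay above every RES mouse and the other mice overlapped, and its log2 difference was 0.18 (standard error 0.12), opposite in sign to that of Dcn.

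EE RES mice did not reach levels of Dcn that undefeated mice lacked. EE control mice ranged from 8.21 to 65.2 CPM with a median of 23.8 CPM, and their highest mouse, at 65.2 CPM, exceeded each of the EE RES mice. SH control mice ranged from 8.17 to 58.8 CPM with a median of 19.3 CPM. Against EE controls, the log2 difference of Dcn was 0.40 (standard error 0.33) in EE RES and -0.68 (standard error 0.34) in EE SUS mice. Across housings it was 0.77 (standard error 0.36) for EE RES against SH RES and -0.62 (standard error 0.34) for EE SUS against SH SUS mice. All of these contrasts hold mice that chose Dcn and are given without a test.

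By mean level of Dcn the groups ran from EE RES at 36.9 ± 16.6 CPM (SD, n = 9) through EE control at 27.9 ± 19.3 (SD, n = 9), SH SUS at 26.6 ± 12.4 (SD, n = 10), SH control at 25.0 ± 17.0 (SD, n = 10) and SH RES at 21.5 ± 9.96 (SD, n = 7) to EE SUS at 17.3 ± 6.03 CPM (SD, n = 9). Each neighbor in this order differed from the next by less than either group's SD. Neighbors in a sorted order lie close by construction, so this is not read as a lack of difference between groups. The ends of the order, EE RES and EE SUS, are the groups of the contrast that chose Dcn.

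**Figure D2:**
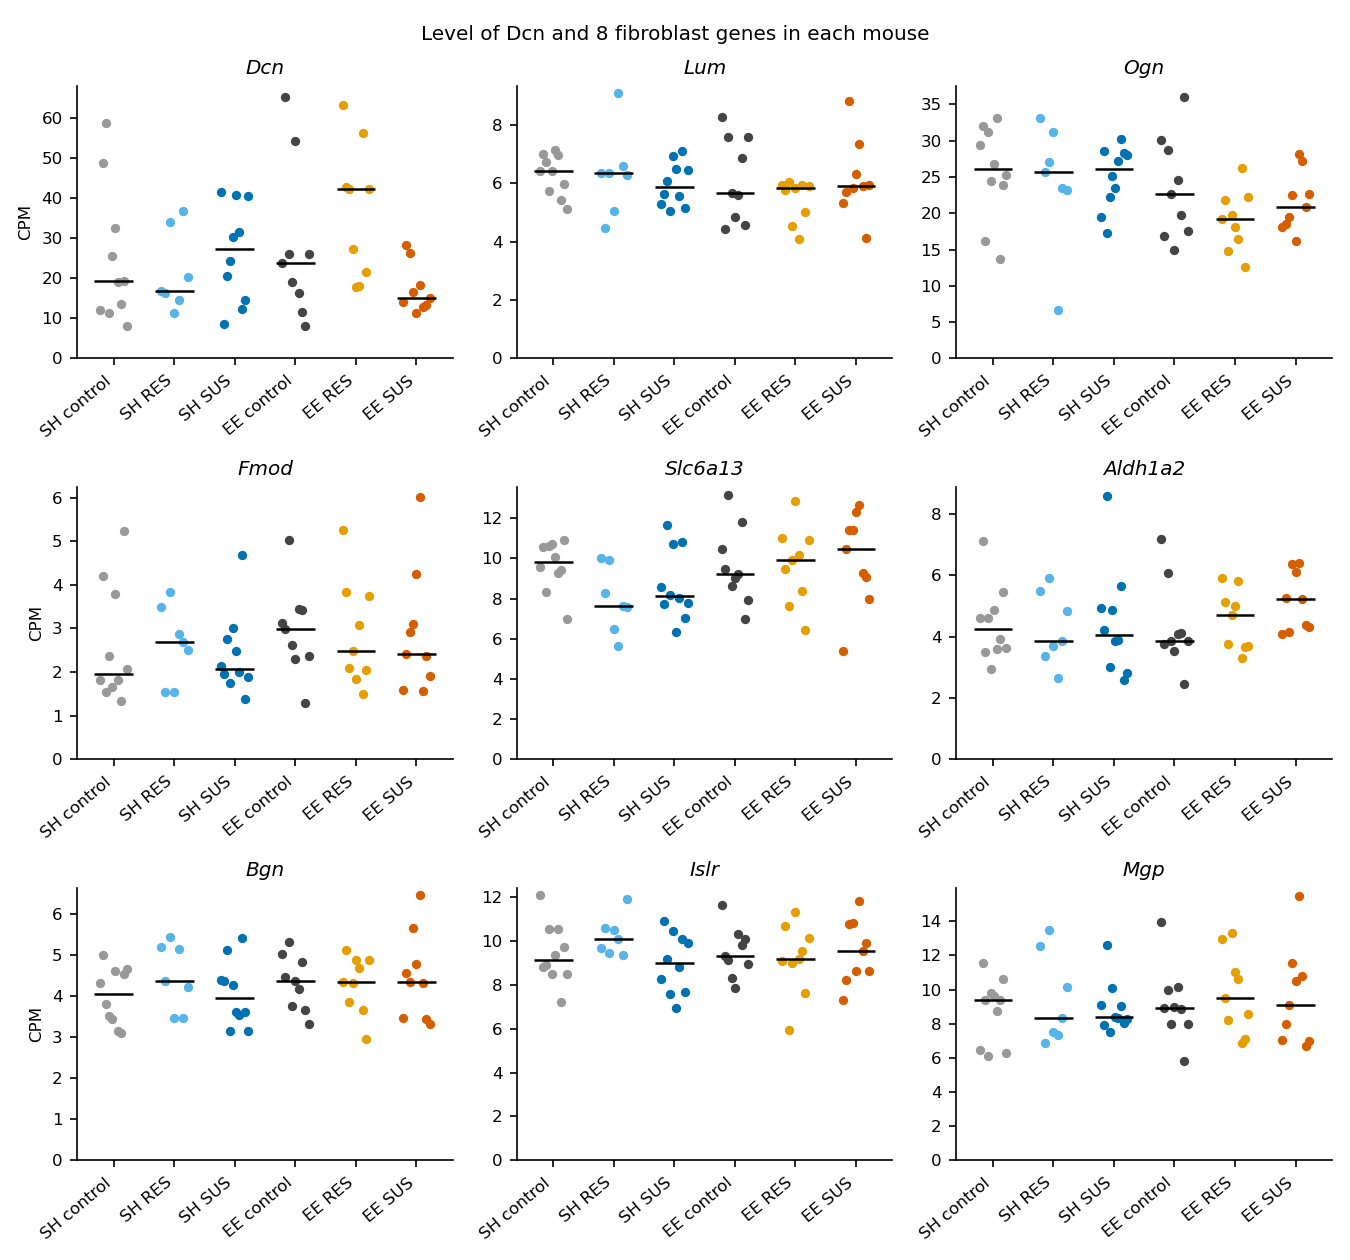
The plot of levels by group shows the CPM (vertical axis, starting at 0) of each of the 9 genes in each mouse (1 point a mouse) in the 6 groups, with a bar at the group median. For Dcn the EE RES mice reach from 17.8 to 63.3 CPM and the EE SUS mice stop at 28.2 CPM, while for the other genes the 6 groups cover much the same range.

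In the mice that the choice of Dcn did not use, no member passed a test between groups. With edgeR's quasi-likelihood test over the 18283 genes, 0 of the 9 members passed an adjusted p of 0.05 for SH SUS against SH RES mice, where 0% of all genes passed, and 893 genes (4.88%) passed an unadjusted p of 0.05. The same held for SH SUS against SH control mice (0 of 9 members, 0.0328% of all genes, 2.78% unadjusted), SH RES against SH control mice (0 of 9, 0%, 3.51% unadjusted) and EE control against SH control mice (0 of 9, 0.00547%, 5.02% unadjusted). DESeq2 and limma also called 0 of the 9 members in each of these 4 contrasts. Over all genes DESeq2 called 0%, 0.0383%, 0% and 0.0109% and limma 0%, 0.00547%, 0% and 0.00547% in the order given. A test of any difference among the 4 groups called 0 of 9 members and 0.0492% of all genes (4.3% unadjusted), and the adjusted p of every member was 0.9997.

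Dcn itself showed no difference beyond its spread in SH. It was at 8.52, 27.4 and 41.6 CPM (lowest, median and highest) in SH SUS and 11.4, 16.7 and 36.9 CPM in SH RES mice. The ranges overlapped, with 3 SUS mice above and 1 below all RES mice, and the log2 difference was 0.30 (standard error 0.36, adjusted p = 0.935 with edgeR). The sign was opposite to that in EE, and the difference between housings was not tested, as it would rest on the EE contrast that chose the gene. The log2 difference was 0.09 (standard error 0.32) for SH SUS and -0.21 (standard error 0.36) for SH RES against SH control mice, and 0.16 (standard error 0.33) for EE control against SH control mice. For Dcn alone, 2-sided exact permutation tests of log2 CPM gave p = 0.495, 0.624, 0.885 and 0.723 for these 4 contrasts in the order given, each 0.885 after adjustment over the 4.

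Of the fibroblast genes, Slc6a13 came nearest to the threshold. It was at 5.65, 7.63 and 10.03 CPM in SH RES and 7.01, 9.83 and 10.9 CPM in SH control mice. Of the controls, 5 lay above every RES mouse, 2 RES mice lay below every control, and the log2 difference was -0.28 (standard error 0.14, unadjusted p = 0.0499 with edgeR). The 8 choroid plexus genes were all lower in SH RES than in SH control mice too (median log2 difference -1.53, 0 passing). They were also all lower than in SH control mice in SH SUS (median -0.54) and EE control mice (median -0.54). These differences did not follow the group medians of their summed level. The medians were 25.8 CPM in SH control, 23.8 in SH RES, 26.2 in SH SUS and 23.8 CPM in EE control mice. In the same order the highest mouse was at 999, 27.4, 368 and 349 CPM. The r of the 8 choroid plexus genes with Slc6a13 over mice lay between -0.18 and -0.0002, and 0 passed. Their part in the level of Slc6a13 was not tested. Slc6a13 was the 1 member at an unadjusted p below 0.05 in any of the 4 contrasts, and it did not pass adjustment. Islr followed, with 9.34, 10.1 and 11.9 CPM in SH RES and 6.92, 8.98 and 10.9 CPM in SH SUS mice. The Islr levels of 6 SUS mice lay below all RES mice, but the log2 difference of -0.19 (standard error 0.10) had an adjusted p of 0.934 with edgeR.

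The remaining members did not pass either. Over the 8 fibroblast genes the log2 differences ran from -0.19 to 0.13 for SH SUS against SH RES, from -0.15 to 0.02 for SH SUS against SH control, from -0.28 to 0.16 for SH RES against SH control and from -0.13 to 0.19 for EE control against SH control mice. Their medians were -0.08, -0.05, 0.02 and 0.00, against -0.00 to 0.00 over all genes.

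**Figure D3:**
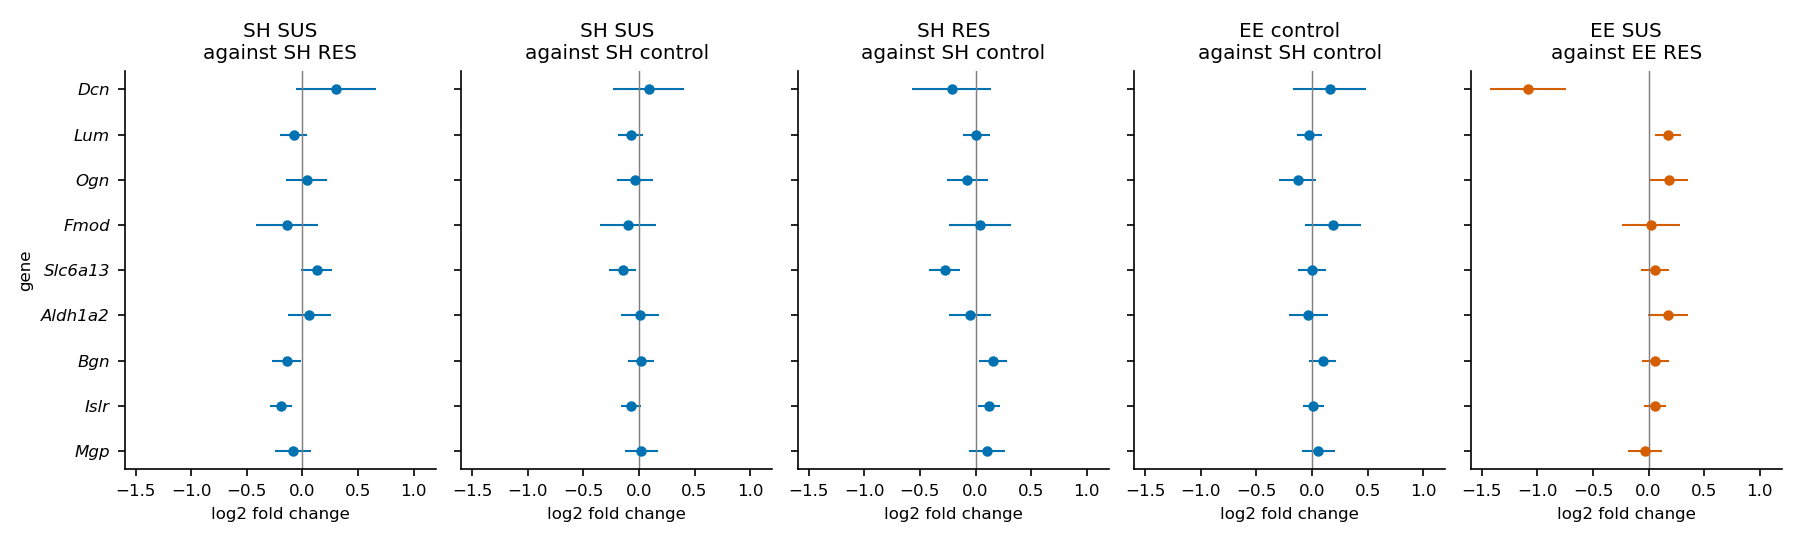
The plot of contrasts shows the log2 fold change (horizontal axis) of each of the 9 genes (vertical axis) with its standard error as a bar, in the 4 tested contrasts (blue) and in the contrast that chose Dcn (orange, not tested). The bars of most genes cross 0, and Dcn at -1.08 stands apart in the orange panel, where its neighbors lie between -0.03 and 0.18.

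Related genes were read in the same 4 contrasts, in which 0, 6, 0 and 1 of all 18283 genes passed with edgeR. At those shares, 0 passing is read neither for nor against a list. Of 24 other meningeal fibroblast genes that passed the filter, led in level by Col6a1, a chain of collagen VI, Igfbp2, which binds insulin-like growth factors, the growth factor gene Igf2 and Serpinf1, an antiangiogenic serpin, 0 passed in any of the 4 contrasts with edgeR. Their median log2 difference was -0.01 for SH SUS against SH RES, -0.08 for SH SUS against SH control, -0.04 for SH RES against SH control and 0.03 for EE control against SH control mice. Likewise 0 passed of 11 small leucine-rich proteoglycans, 14 decorin binding partners, 17 genes of the retinoic acid pathway, 5 GABA and taurine transporters, 10 genes of pericytes and smooth muscle, 8 of endothelium, 7 of border macrophages, 8 of choroid plexus, 6 of dentate granule cells and 5 of thalamus. Red cell genes did differ, as all 5 listed were higher in SH SUS than in SH control mice (adjusted p below 0.05 with edgeR). Their median log2 difference was 1.44, and 6 genes in all passed in that contrast. The correlation over mice of red cell genes with members lay between -0.09, for Slc6a13, and 0.21, for Bgn, and 0 of these passed.

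Correlation over mice then asked whether the 9 genes varied as 1 group. Over the 54 mice, Pearson's r of log2 CPM between Dcn and the 8 fibroblast genes ran from -0.25 for Islr to 0.29 for Mgp, and 0 of 8 passed an adjusted p of 0.05 over all genes, where 5.01% of all genes passed. Mgp had the largest r with Dcn, at 0.29 (Spearman's rho 0.30, permutation p = 0.0354, adjusted p = 0.226), and leaving out the 2 mice with the most extreme Dcn levels gave 0.26. Fmod followed at r = 0.21, Lum at 0.12, Slc6a13 at 0.11, Aldh1a2 at 0.03 and Bgn at 0.00, and Ogn was at -0.17. With the EE SUS and EE RES mice left out, the 8 values lay between -0.35 and 0.44.

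Lum, the gene next to Dcn, was also not correlated with it at the threshold, although 46984 bases separate them. Both lie on the forward strand of chromosome 10 (GRCm38), Dcn from 97479609 to 97518143 and Lum from 97565128 to 97572703. At r = 0.12 with Dcn (adjusted p = 0.681), Lum ranked 4923 among 18282 genes. With group means subtracted r was 0.24. Within single groups, each of few mice, it ran from -0.16 in EE control to 0.77 in SH control mice, and these within-group values were not tested.

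Genes outside the fibroblast lists followed Dcn. The highest r over all genes was that of Ccn3, at 0.92 (rho 0.92, permutation p = 1e-05, the smallest that 100000 resamples can give, adjusted p = 0.00105). Ccn3 encodes a matricellular protein of the CCN family. It ranged from 3.25 to 78.7 CPM, and was at 6.35, 35.3 and 78.1 CPM (lowest, median and highest) in EE RES and 4.47, 9.35 and 22.8 CPM in EE SUS mice. Ccn3 was picked for its r with Dcn over all mice, so a shared direction in these 2 groups is no independent observation. The Ccn3 ranges in these groups were arranged like those of Dcn, with a log2 difference of -1.59 (standard error 0.53) between EE SUS and EE RES mice. The relation did not rest on that contrast, as r was 0.92 without the EE SUS and EE RES mice, 0.91 in SH mice, 0.93 in EE mice, 0.91 with group means subtracted, 0.90 without the 2 mice farthest from the median of Dcn, and between 0.77 and 0.96 within each of the 6 groups.

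Other genes with a high r had varied roles. They included Myh7, a myosin heavy chain gene (r = 0.89), Gabra3, a GABA-A receptor subunit gene (0.86), Dio3, a deiodinase that inactivates thyroid hormone (0.86), Mpped1, a metallophosphoesterase-domain gene (0.83), and Pde11a, a cyclic nucleotide phosphodiesterase gene enriched in ventral hippocampus (0.82). They went on with Ldb2, a cofactor of LIM-domain proteins (0.82), Pex5l, a relative of the peroxisomal import receptor gene (0.82), and Cd36, a fatty acid receptor (0.82). Each had an adjusted permutation p of 0.00105, and with group means subtracted r stayed between 0.80 for Cd36 and 0.87 for Myh7. The 3 lowest values were those of Zfhx4 (-0.64), a zinc finger homeobox gene, Gabra4 (-0.64), another GABA-A receptor subunit gene, and Epha7 (-0.62), an ephrin receptor gene.

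Lists of genes of other cell types were then set beside Dcn. A list of 8 CA1 pyramidal cell markers was written after the genes above had been seen and holds 2 of them, Mpped1 and Pex5l, so its values are partly set by that choice and are given without a test. The r of these 8 genes with Dcn had a median of 0.62, and apart from Mpped1 and Pex5l they lay between 0.34 for Wfs1 and 0.72 for Fibcd1. A list of 4 CA3 markers, written at the same time, lay between -0.24 and 0.31. Of 6 dentate granule cell genes, 1, the granule cell transcription factor gene Prox1, passed with Dcn, at r = -0.50 (adjusted p = 0.00627), and the median of the 6 was -0.29. Of the 24 other meningeal fibroblast genes, 2 passed, Col6a1 (0.49) and Lamc3 (0.44), beside 5.01% of all genes, and their median r was 0.20, against -0.00 over all genes. Of 8 choroid plexus genes 0 passed, and their r lay between 0.12 and 0.33 with a median of 0.26. Of 7 border macrophage genes, 1 passed, Pf4 (0.41), with a median of 0.02. Of endothelial (8), pericyte and smooth muscle (10), red cell (5) and thalamic (5) genes, 0 passed, and the medians were 0.04, 0.07, 0.01 and -0.27.

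Checked against the label of meningeal fibroblast gene, Dcn thus passed with 0 of the 8 fibroblast members, whose median r was 0.07, and with 2 of the 24 other fibroblast genes. Beside the 5.01% of all genes that passed, counts over so few genes are read neither for nor against the label. The summed level of the 8 CA1 genes was 266, 358 and 539 CPM (lowest, median and highest) in EE RES and 250, 291 and 371 CPM in EE SUS mice. As Dcn was chosen on these mice and part of the CA1 list for following Dcn, a shared direction here is no independent observation. Dentate granule cell genes summed to 469, 623 and 730 CPM in EE RES and 539, 649 and 792 CPM in EE SUS mice, and thalamic genes to 98.7, 174 and 557 CPM and 142, 277 and 495 CPM. The part of CA1 tissue in the difference in Dcn was not tested.

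**Figure D4:**
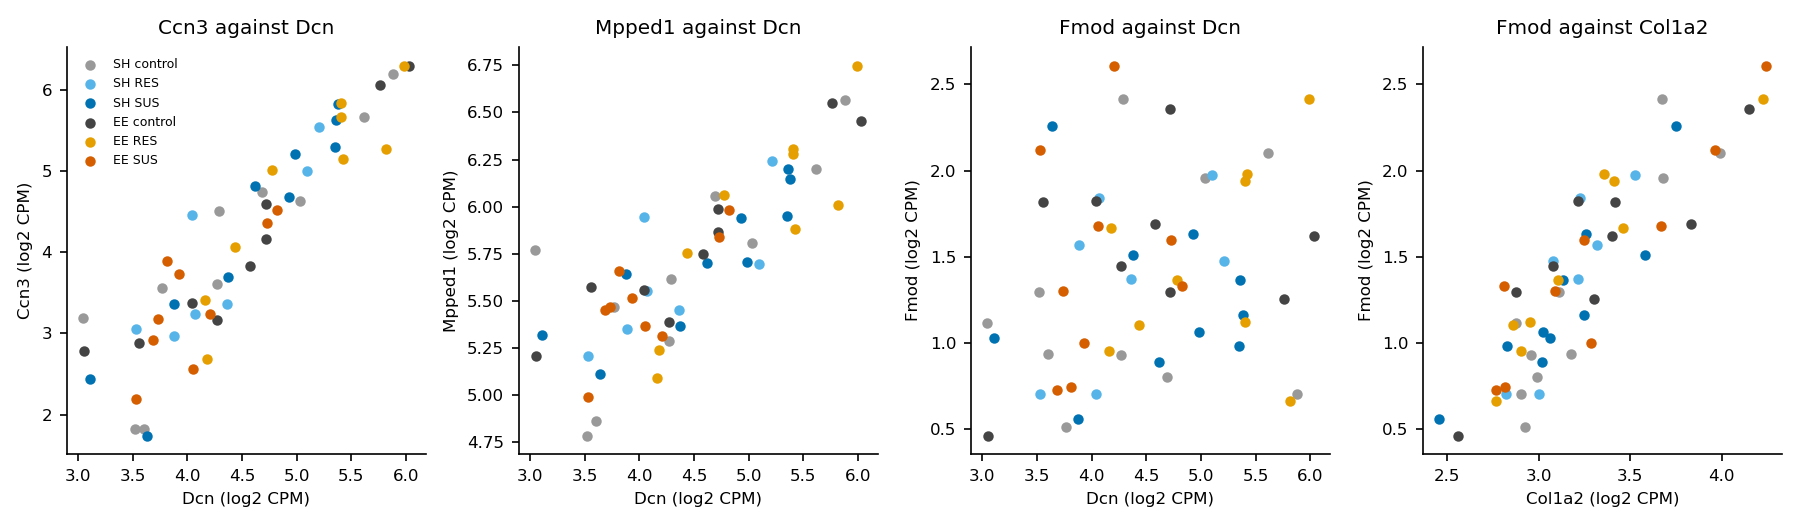
The scatter plots show log2 CPM of Ccn3, Mpped1 and Fmod against Dcn and of Fmod against Col1a2 in the 54 mice (1 point a mouse, colored by group). Ccn3 (r = 0.92) and Mpped1 (0.83) climb with Dcn across the groups, Fmod (0.21) does not, and Fmod climbs with Col1a2 (0.88).

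Binding partners of decorin, other small leucine-rich proteoglycans and the retinoic acid pathway, to which the member Aldh1a2 belongs, were read against the same 5.01% of all genes. Of 14 binding partners, 1 passed, which was Met, the hepatocyte growth factor receptor gene, at r = 0.79 (adjusted p = 0.00105). Col1a1, Col1a2, Tgfb1, Tgfb2 and Tgfb3 did not pass, with r between -0.04 for Tgfb2 and 0.27 for Tgfb3. Of the 10 other small leucine-rich proteoglycans tested, 4 of them members, 1 passed, which was the podocan gene Podn at r = 0.60 (adjusted p = 0.00177). Of 17 genes of the retinoic acid pathway, the receptor genes Rxrg (0.79) and Rxra (0.55), the carrier gene Rbp4 (0.51) and the degrading enzyme gene Cyp26a1 (0.46) passed with a positive r and the synthesizing enzyme gene Aldh1a1 (-0.56) with a negative one. The median r was 0.14 for the binding partners, -0.03 for the proteoglycans and 0.12 for the retinoic acid pathway.

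Among the 36 pairs of the 9 genes, 10 passed an adjusted p of 0.05 with either gene of the pair as the reference, 2 with 1 gene only and 24 with neither. The 10 were the pairs among Fmod, Slc6a13, Aldh1a2, Bgn and Mgp, a set that was picked out from these values and is described here as such, with r from 0.57 for Slc6a13 with Bgn to 0.70 for Fmod with Bgn. Over all genes, 0.941% passed with a positive r for Fmod, 0.273% for Slc6a13, 0.684% for Aldh1a2, 0.29% for Bgn and 0.979% for Mgp. With group means subtracted the 10 values lay between 0.59 and 0.71, without the 2 mice farthest from the reference gene's median between 0.51 and 0.69, and Spearman's rho between 0.55 and 0.69. They were between 0.26 and 0.70 in the 27 SH mice and between 0.62 and 0.82 in the 27 EE mice. Aldh1a2 and Mgp stood at r = 0.69, and Aldh1a2 and Fmod at 0.65, so that a retinoic acid enzyme, a calcification inhibitor and a proteoglycan varied together from mouse to mouse.

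Genes outside the members joined this set. The gene most correlated with Fmod was Col1a2, a chain of type I collagen, at r = 0.88, followed by the transporter gene Slc6a20a (0.76) and by Col3a1 (0.76), a type III collagen gene (adjusted permutation p = 0.00389 for each). Aldh1a2 was closest to Acta2 (0.81), Myh11 (0.75) and Tagln (0.74), contractile genes of smooth muscle, and Bgn to Tagln (0.72). Mgp was closest to Vtn (0.74), a gene of pericytes, and Slc6a13 to Myoc (0.71) and to the growth factor gene Bmp6 (0.70). Of the 24 other meningeal fibroblast genes, 16 passed with Fmod, 15 with Aldh1a2, 12 with Mgp, 12 with Slc6a13 and 9 with Bgn, against 2 with Dcn. Of 10 genes of pericytes and smooth muscle, 5 passed with Fmod, Aldh1a2, Bgn and Mgp each and 4 with Slc6a13, against 0 with Dcn. The share of all genes that passed with a positive r differed between these reference genes, so the counts are not on one scale. It was 0.941% for Fmod, 0.684% for Aldh1a2, 0.979% for Mgp, 0.273% for Slc6a13, 0.29% for Bgn and 2.96% for Dcn.

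**Figure D5:**
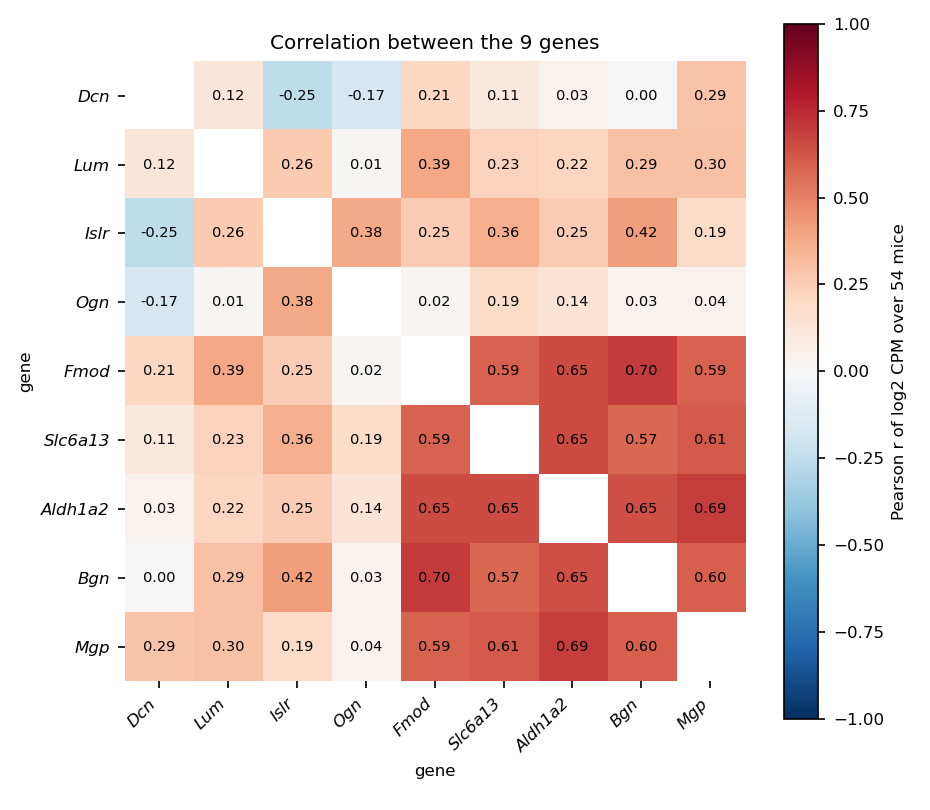
The heat map shows Pearson's r of log2 CPM over the 54 mice for each of the 36 pairs of the 9 genes (both axes), from blue (-1) to red (1). Fmod, Slc6a13, Aldh1a2, Bgn and Mgp form a red block with r from 0.57 to 0.70, and the row of Dcn stays between -0.25 and 0.29.

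Promoter windows of the members that varied together are printed so that their sequences can be compared. RefSeq windows (GRCm38.p6), from 250 bases before to 50 bases after a start site, matched 6 of the 9 members, and those of Fmod (chr1:134037004-134037303, forward strand), Slc6a13 (first of its windows, chr6:121300038-121300337, forward strand), Aldh1a2 (chr9:71215539-71215838, forward strand) and Bgn (chrX:73483351-73483650, forward strand) follow, 5′ to 3′. Capitals mark matches on either strand to the motifs searched, which were the TATA box TATAAA, the GC box GGGCGG, the AP-1 motif TGANTCA, the TEAD motif GGAATG, the forkhead motif TGTTTAC and the E-box CAGATG, and matches that overlap are joined.
Fmod: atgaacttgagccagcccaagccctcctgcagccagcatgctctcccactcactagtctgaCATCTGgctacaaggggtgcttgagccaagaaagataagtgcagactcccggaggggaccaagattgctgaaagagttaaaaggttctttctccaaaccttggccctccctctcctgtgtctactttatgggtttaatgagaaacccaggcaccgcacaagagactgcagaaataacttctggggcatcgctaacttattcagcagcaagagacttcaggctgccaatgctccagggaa
Slc6a13: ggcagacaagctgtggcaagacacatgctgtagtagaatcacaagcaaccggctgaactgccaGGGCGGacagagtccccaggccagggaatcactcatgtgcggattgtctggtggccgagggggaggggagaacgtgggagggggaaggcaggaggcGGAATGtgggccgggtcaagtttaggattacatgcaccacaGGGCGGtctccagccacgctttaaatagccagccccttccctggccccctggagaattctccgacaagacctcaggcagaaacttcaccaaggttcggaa
Aldh1a2: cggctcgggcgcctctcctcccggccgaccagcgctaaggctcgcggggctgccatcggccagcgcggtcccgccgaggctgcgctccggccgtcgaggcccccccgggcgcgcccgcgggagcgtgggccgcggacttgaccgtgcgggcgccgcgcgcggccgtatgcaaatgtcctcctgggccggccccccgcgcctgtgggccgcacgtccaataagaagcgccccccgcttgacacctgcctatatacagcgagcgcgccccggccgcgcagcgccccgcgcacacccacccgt
Bgn: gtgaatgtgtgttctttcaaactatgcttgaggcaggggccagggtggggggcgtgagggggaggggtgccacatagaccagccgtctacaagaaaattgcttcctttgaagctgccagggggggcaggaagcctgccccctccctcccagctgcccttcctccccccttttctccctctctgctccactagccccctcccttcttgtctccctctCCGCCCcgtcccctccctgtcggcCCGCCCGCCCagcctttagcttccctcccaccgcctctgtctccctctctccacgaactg

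None of the 6 motifs, as searched, was shared by all 4 windows. The E-box was searched only as CAGATG, so E-boxes with other letters in these windows were not counted. Fmod held 1 CAGATG, which is in 17.2% of the 32851 windows of the same length. Slc6a13 held 2 GC boxes and 1 TEAD motif, which are in 35.7% and 14.7%. Bgn held 3 GC boxes, of which 2 overlap, and Aldh1a2 held none of the 6 motifs. The windows also differed in base composition, with 51% G and C in Fmod, 59% in Slc6a13, 63.7% in Bgn and 78% in Aldh1a2, against a median of 52.7% over all windows. The TATA box (13.6%), AP-1 motif (7.81%) and forkhead motif (3.65%) matched in 0 of these 4 windows.

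Lum, Ogn and Islr were outside this set. Lum, a keratan sulfate proteoglycan of collagen-rich tissue, passed with 0 of the 8 other members, where 1.71% of all genes passed, and its largest r among them was 0.39 with Fmod (adjusted p = 0.0922). Its levels were also the most even beside those of Islr and Bgn, with group medians between 5.67 and 6.42 CPM. Ogn and Islr passed with each other at r = 0.38 with Ogn as the reference (adjusted p = 0.0467) and not with Islr as the reference (adjusted p = 0.0645). Islr with Bgn, at r = 0.42, passed with Islr as the reference (adjusted p = 0.04) and not with Bgn (adjusted p = 0.169).

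Ogn and Islr followed genes of dentate granule cells. Of the 6 granule cell genes, 4 passed with Ogn, against 5.58% of all genes with a positive r, and these were Calb1 (r = 0.71), the calbindin gene, Tdo2 (0.71), a tryptophan-degrading enzyme gene, the desmosome gene Dsp (0.54) and Prox1 (0.50). With Islr, 4 of 6 passed as well, against 2.82% of all genes with a positive r, namely the synaptic organizer gene C1ql2 (0.56), Calb1 (0.43), Prox1 (0.43) and Tdo2 (0.42). Dcn had a negative r with all 6 granule cell genes, so the signs were opposite to those of Ogn and Islr. Of the 24 other meningeal fibroblast genes, Ogn passed with Fbln1 (0.46) and, with a negative r, with Col6a1 (-0.62), and Islr with Fbln1 (0.49) and Cyp1b1 (0.60). In either sign, 10.9% of all genes passed with Ogn and 5.5% with Islr. Lum passed with 0 of these 24 genes. The name of fibroblast gene was given to Lum, Ogn and Islr from prior knowledge and was not tested here.

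Over all genes, Ogn was closest to Trpa1 (0.82), an irritant-sensing cation channel gene, Vrk1 (0.76), a kinase gene, and Ppic (0.76), a cyclophilin gene. It lies in a cluster of proteoglycan genes on chromosome 13 (GRCm38, 49608046 to 49624501). Of its neighbors there, Ecm2, which lies 75256 bases away, stood at r = 0.73 with Ogn, rank 5 of 18282 genes, whereas the nearer Omd and Aspn stood at 0.13 and 0.20 and did not pass. Ogn also overlaps Cenpp on the opposite strand, and the reverse-strand counts used here keep such genes apart. Islr overlaps Islr2 on the same strand, where strand cannot separate reads, and the share of reads affected was not measured. Forward-strand counts, which were not used, amounted to 3.95% of the stranded counts of Ogn, 2.83% of those of Islr and at most 1.86%, in Fmod, of those of the others. Over all genes the share was 3.51% to 4.13% per library, so Ogn lay within that range and the other members below it.

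The levels of Ogn and Islr by group were close. Ogn was at 13.6, 26.1 and 33.1 CPM (lowest, median and highest) in SH control, 6.64, 25.7 and 33.2 CPM in SH RES and 17.2, 26.1 and 30.2 CPM in SH SUS mice. In EE it was at 14.9, 22.6 and 36.1 CPM in control, 12.6, 19.2 and 26.2 CPM in RES and 16.2, 20.9 and 28.2 CPM in SUS mice. These ranges overlapped, and the log2 difference was -0.35 (standard error 0.19) for EE RES against SH RES mice, given without a test. Islr medians ran from 8.98 CPM in SH SUS to 10.1 CPM in SH RES mice.

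Of 5 technical measures of the libraries, 0 passed with Dcn. Its r was 0.27 with the number of read pairs (adjusted p = 0.110 over 5 measures), -0.25 with the share of read pairs outside genes, 0.08 with multimapping, 0.19 with unmapped reads and 0.28 with the normalization factor (adjusted p = 0.110), all from permutation tests over 54 mice.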

How the data were processed

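Each replicate was 1 mouse. Libraries held 32223034 to 49990637 read pairs. Raw counts of read pairs per gene, deposited by the authors for 55 libraries of 54 mice, were used. The submitters' processing notes name STAR, Picard and mm10, and the paper names featureCounts, whereas the files are laid out as STAR writes its own gene counts. Reverse-strand counts were taken, as the TruSeq kit keeps strand. Of 45318 Ensembl identifiers, 44671 matched gene names in the GENCODE annotation of GRCm38. The 9 members and the gene lists were chosen with earlier results of these data known.

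Counts were normalized by TMM, filtered with filterByExpr and fitted in 1 model of 6 groups with edgeR 4.0.16 in R 4.3.3 (quasi-likelihood test, Benjamini-Hochberg over 18283 genes, called below 0.05), with DESeq2 1.42.0 and limma 3.58.1 as alternatives. Correlations used log2 CPM (prior count 2) over 54 mice with 2-sided tests of 100000 permutations, adjusted over 18282 genes. Scripts used Python 3.11.15, NumPy 2.4.6, pandas 2.3.3, SciPy 1.17.1, data.table (version 1.17.8) and matplotlib 3.10.9, and were tested on simulated data.

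Genes named are the members, the 10 most and 3 least correlated with Dcn and up to 4 most abundant genes per list. Some results that this rule covers are not reported here. All others, and the lists of CA1 and CA3 cells, were chosen after their values were seen. Alternatives tried were other size factors, filters, tools, strand counts, prior count, groups in the fit, a replicate block, 1 run of EE control mouse 9, and each mouse left out in turn.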

Additional observations from a re-analysis of the deposited data

Results flagged for a closer look

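Single mice lay far from the rest of their group in 4 of the 54 combinations of a member and a group that were tested for a value separated by a wide gap, and chance alone sets apart about 1 in 20. The lowest SH RES mouse, replicate 5, had 6.64 CPM of Ogn against 23.2 CPM in the next mouse and a group median of 25.7 CPM. The highest SH SUS mouse for Fmod, replicate 8, had 4.69 CPM against 3.01 CPM in the next. SH SUS mouse 3 was highest for both Aldh1a2, at 8.57 CPM against 5.64 CPM in the next, and Mgp, at 12.6 CPM against 10.1 CPM. Outside the counts used for the tests, Ogn had forward-strand counts amounting to 3.95% of its stranded counts over the 54 mice. Over all genes this share was 3.51% to 4.13% per library, with a median of 3.69%, so Ogn lay within the ordinary range.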

How the results depend on the processing

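Under each alternative run for them, 0 of the 9 members were called in each of the 4 tested contrasts and 0 of 8 passed with Dcn. For EE SUS against EE RES mice other size factors, unstranded counts, a replicate block and each mouse left out were run, but not other filters, tools, the 2 groups alone or the first run. Dcn kept its sign there (log2 difference -1.11 to -1.08, -1.20 to -0.95 with each mouse left out, and -1.48 as the ratio of group medians, an alternative added after the data were seen). The depth, with down to 24 counts for Fmod in a mouse, limits precision for the low members. Labels share replicate numbers, and same-numbered mice had slightly higher correlations of their deviations than others (median r 0.03 over 126 pairs, 32 of them above 0.1, against -0.00 over 1086 other pairs, 175 above 0.1). Most same-numbered pairs were at or below 0.1, which a weak pairing would also give, so these values do not exclude a pairing. The numbers were taken as names only in the main fit, and the replicate block was run as an alternative. Signs of differences near 0 were not stable, which concerned 91 of the values below the threshold. With the replicate block, where 0 members were called, the log2 difference of Mgp for SH SUS against SH RES became 0.012, that of Aldh1a2 for SH SUS against SH control -0.0091 and that of Lum for SH RES against SH control -0.033. With limma, by its adjusted p or by an unadjusted p with a fold minimum, the last became -0.016 and that of Aldh1a2 -0.026. With the first run of EE control mouse 9 only, Slc6a13 was at 0.0018 for EE control against SH control mice. The r with Dcn was -0.067 for Aldh1a2 in EE mice, and for Bgn -0.10 in SH mice, -0.022 without EE SUS and EE RES mice and -0.019 without the 2 farthest mice. With each mouse left out, log2 differences for SH SUS against SH RES mice ran from -0.15 to 0.027 for Lum, -0.13 to 0.13 for Ogn, -0.098 to 0.16 for Aldh1a2 and -0.15 to 0.024 for Mgp. Those for SH SUS against SH control mice ran from -0.017 to 0.33 for Dcn, -0.25 to 0.084 for Fmod, -0.038 to 0.054 for Bgn, -0.11 to 0.015 for Ogn, -0.15 to 0.11 for Aldh1a2 and -0.045 to 0.071 for Mgp. Those for SH RES against SH control mice ran from -0.39 to 0.025 for Dcn, -0.077 to 0.22 for Fmod, -0.10 to 0.080 for Lum, -0.16 to 0.096 for Ogn, -0.15 to 0.050 for Aldh1a2 and -0.0026 to 0.18 for Mgp. Those for EE control against SH control mice ran from -0.10 to 0.40 for Dcn, -0.088 to 0.021 for Lum, -0.071 to 0.039 for Slc6a13, -0.16 to 0.062 for Aldh1a2, -0.040 to 0.11 for Mgp and -0.032 to 0.057 for Islr. The sign of Dcn turned without SH control mouse 10 (-0.017), SH SUS mouse 1 (-0.0039) or SH SUS mouse 6 (-0.0017) for SH SUS against SH control, without SH control mouse 3 (0.025) for SH RES against SH control, and without EE control mouse 2 (-0.10) or 5 (-0.025) for EE control against SH control mice. The cause of these changes was not tested.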
